A study of Mus musculus with 14 samples.

Results

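The genes described here serve the hydrolysis, transport, storage and efflux of cholesterol, or the regulation of these steps. They are 10 genes, chosen by symbol from the 23282 genes of the count table, namely Lipa, Npc1, Npc2, Soat1, Abca1, Abcg1, Apoe, Nr1h3, Pltp and Ch25h, and all 10 were found in it. Their RNA was measured in epididymal white adipose tissue (eWAT), the visceral fat pad attached to the epididymis, of wild type male C57BL/6J mice. The diets began at 4 weeks of age and lasted 20 weeks. The control group received a standard diet, called normal diet in the labels. The WD group received a Western diet (WD), which is rich in milk fat, contains cholesterol and came from another maker. Batch 1 held 4 control (replicates 1 to 4) and 5 WD libraries, and batch 2 held 5 control libraries (replicates 5 to 9), so that the 14 libraries set 9 controls against 5 WD. No WD library belonged to batch 2. The labels number the samples of each diet without saying more about them, so the p-values measure the spread between these samples.

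Cholesterol enters cells largely as esters within lipoproteins or the lipid of dying cells. In the lysosome the acid lipase encoded by Lipa cleaves these esters, the soluble NPC2 protein takes up the freed cholesterol, and the membrane protein NPC1 passes it on. Cholesterol that reaches the endoplasmic reticulum is esterified again by SOAT1 and stored in droplets, or it leaves the cell through the transporters ABCA1 and ABCG1 to acceptors such as apolipoprotein E and high-density lipoprotein. The nuclear receptor LXRα, encoded by Nr1h3, senses oxysterols and switches on Abca1, Abcg1, Apoe and Pltp. In fat, macrophages that surround dying adipocytes take up lipid and break it down in lysosomes, whereas adipocytes themselves hold a large store of free cholesterol.

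Libraries held 10278970 to 13712254 counts, of which 15.4% to 26.9% fell on the ribosomal RNA gene Rn45s. A pair of batch 1 controls stood apart. In control replicate 1, 8 epididymis markers (chiefly Gpx5) took 12.2% of all counts and summed to 158700 CPM (counts scaled to a common library total), against at most 46.3 CPM in any other library, and the summed adipocyte markers were at 4840 CPM, against at least 21970 CPM in the others. Control replicate 4 had counts on 7999 genes, the fewest, and the highest summed macrophage markers of the controls. Adipocyte markers were abundant in the other 13 libraries, as the label of the tissue has it. The sum of 7 macrophage markers (Adgre1, Cd68, Itgax, Mrc1, Csf1r, Cd163 and Lyz2) ranged from 163.4 to 1242 CPM in batch 1 controls (median 584.7), from 1166 to 1729 CPM in the WD group (median 1591) and from 291.0 to 637.6 CPM in batch 2 controls (median 352.9). In bulk tissue, fewer cells of a type and less RNA per cell cannot be told apart. All CPM levels given here are scaled by TMM factors over all 14 libraries. Since QuantSeq reads come from the 3′ end of transcripts, these levels do not grow with gene length.

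Lipa RNA was several times higher in the WD group than in either set of controls, and no WD library overlapped any control. Its difference passed the test against batch 2 controls and against all controls, and not within batch 1, where edgeR called no gene. Pltp, whose counts could not be separated from those of its neighbour Ctsa, also rose in those same 2 comparisons but overlapped between diets within batch 1. Soat1 and Npc2 rose against the batch 2 controls. In that comparison diet and batch cannot be told apart for any gene. Against all controls they are separated only in part, since no WD library belonged to batch 2 and no batch term was fitted. The transporter genes Abca1 and Abcg1, the lipoprotein gene Apoe and the receptor gene Nr1h3 overlapped between diets in every comparison. Npc1 did not overlap between diets within batch 1, but it passed the test in no comparison. Of the 10 genes, 9 passed the filter on low counts in each comparison, and Ch25h passed in none.

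**Figure D1:**
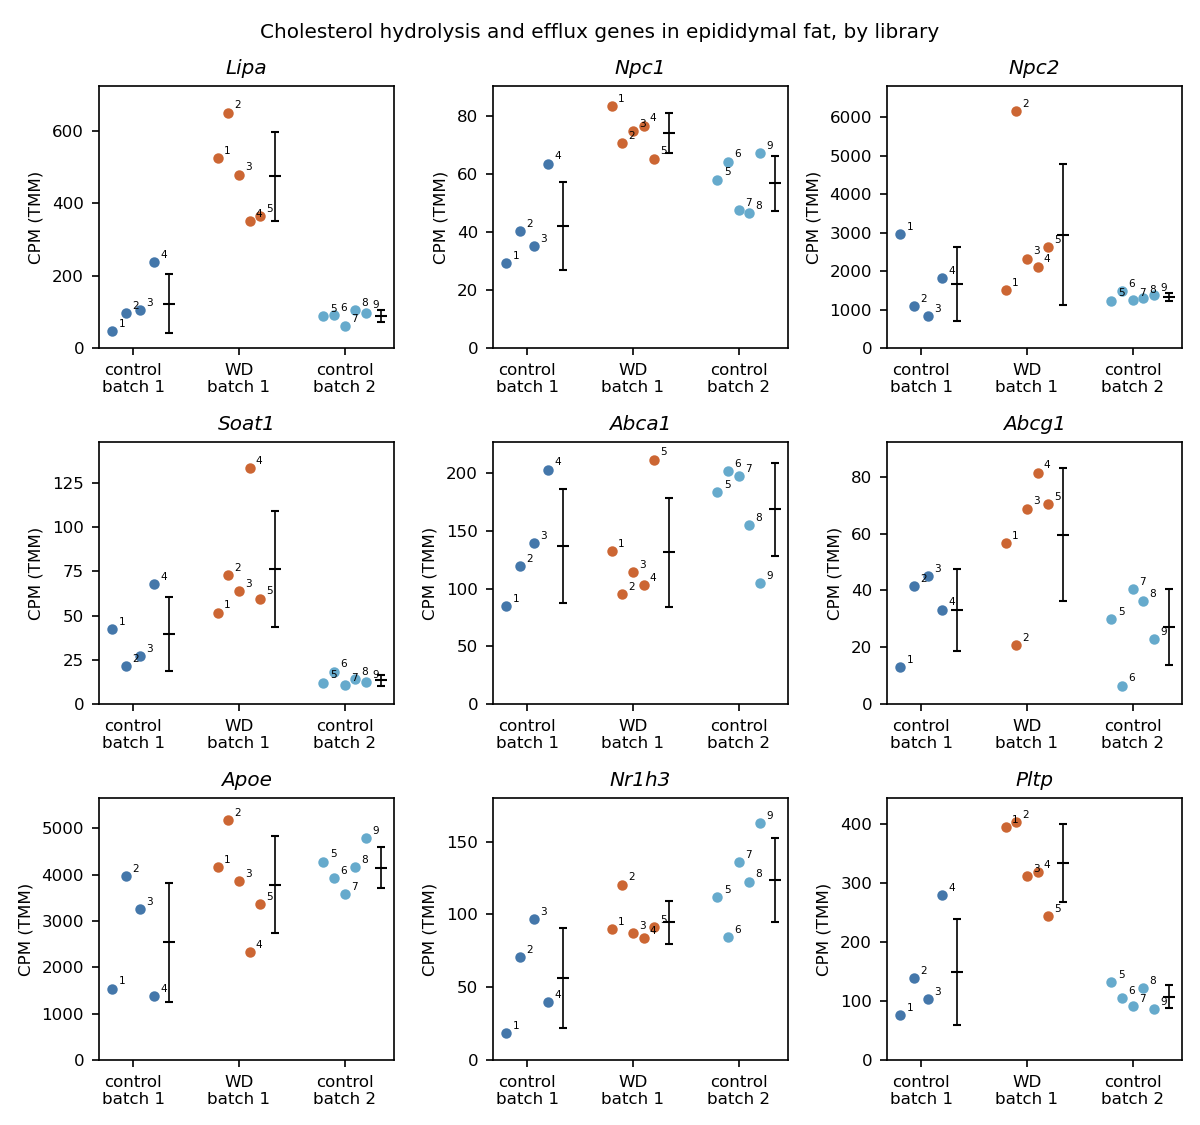
Normalized level (CPM, TMM factors over 14 libraries, linear axes from 0) of 9 genes in each library, with the replicate number beside each point and the mean ± SD of each group in black. All 5 WD libraries lay above all 9 controls for Lipa, whereas each of the other genes shown overlapped between the WD group and all controls.

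The promoters below are shown because they belong to the gene whose WD libraries all lay above every control (Lipa), to the gene whose 3′ end overlaps that of a member (Ctsa) and to the best known LXR target among the members (Abca1). The promoters are RefSeq sequences on build GRCm38.p6, 250 bases before to 50 after the start, and 8 of the 10 members had one. Both strands were searched for the E-box CACGTG, which 7.15% of 32851 promoters held, for the extended E-box TCACGTGA (0.974%), which contains the E-box, for a relaxed LXR repeat, GGTNA and GGTNA with 5 bases between (0.718%), and for the strict repeat, AGGTCA and AGGTCA with 4 bases between (0.0152%), which is a case of the relaxed one. Capitals mark the matches. The Lipa promoter (chr19:34527425-34527724, minus strand) held none of these letters, and the Ctsa promoter (chr2:164833523-164833822, plus strand), of its 2 annotated starts the only one with matches, held the extended E-box at -13 and at 5, counting the start as 1 and bases before it as negative. The Abca1 promoter (chr4:53159846-53160145, minus strand) held an E-box at -147 and the relaxed LXR repeat, on the opposite strand, at -67. The other members with a promoter sequence had no match.
Lipa: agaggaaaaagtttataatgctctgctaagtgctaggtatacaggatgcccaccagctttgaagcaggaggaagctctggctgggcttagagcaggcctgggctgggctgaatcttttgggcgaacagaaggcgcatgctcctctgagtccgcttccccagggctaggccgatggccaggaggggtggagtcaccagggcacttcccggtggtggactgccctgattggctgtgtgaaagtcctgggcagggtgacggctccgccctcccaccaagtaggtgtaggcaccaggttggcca
Ctsa: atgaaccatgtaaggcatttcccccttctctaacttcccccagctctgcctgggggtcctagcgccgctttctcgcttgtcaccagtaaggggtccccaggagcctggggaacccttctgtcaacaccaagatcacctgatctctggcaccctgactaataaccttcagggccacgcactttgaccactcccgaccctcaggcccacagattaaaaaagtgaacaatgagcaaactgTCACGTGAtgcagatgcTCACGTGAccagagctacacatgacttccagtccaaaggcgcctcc
Abca1: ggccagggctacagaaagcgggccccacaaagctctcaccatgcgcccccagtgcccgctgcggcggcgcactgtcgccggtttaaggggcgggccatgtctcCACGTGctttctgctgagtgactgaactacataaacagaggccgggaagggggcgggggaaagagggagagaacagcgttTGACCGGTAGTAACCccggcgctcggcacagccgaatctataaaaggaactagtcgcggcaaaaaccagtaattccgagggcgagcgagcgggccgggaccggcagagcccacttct

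The 3 genes of lysosomal hydrolysis and egress were considered first. Lipa (chromosome 19, 34492316 to 34527474, minus strand, build mm10 as for all gene positions here) had 47.6, 96.4, 105.0 and 238.2 CPM in control replicates 1 to 4 of batch 1. In WD replicates 1 to 5 it had 525.3, 650.4, 479.1, 350.4 and 364.1 CPM, and in control replicates 5 to 9 it had 87.1, 91.9, 61.0, 105.4 and 98.0 CPM. The lowest WD library therefore stood above the highest control, replicate 4, and the batch 2 controls kept within a narrow range. The means were 121.8 ± 81.6 CPM in batch 1 controls (SD, n = 4), 473.9 ± 123.6 CPM in the WD group (SD, n = 5) and 88.7 ± 16.9 CPM in batch 2 controls (SD, n = 5).

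Within batch 1, Lipa was 3.88-fold higher in the WD group (log2 fold change 1.96 ± 0.44, SE), which did not pass the threshold of 0.05 on the false discovery rate (FDR, the Benjamini-Hochberg adjusted p over all genes tested by edgeR's quasi-likelihood test, FDR = 0.434). No gene passed there (0.0% of 12157), and 628 genes (5.17%) had an unadjusted p under 0.05, Lipa among them at 0.000638. Without control replicate 4, the Lipa log2 fold change was 2.49 (edgeR FDR = 0.0223), and 48 genes were called. With DESeq2 its FDR was 0.00456, and 114 genes were called. Against the batch 2 controls Lipa rose 5.29-fold (log2 2.40 ± 0.22, SE, edgeR FDR = 9.78e-06), and against all 9 controls 4.51-fold (log2 2.17 ± 0.30, SE, edgeR FDR = 0.00274). These comparisons share the WD libraries, and in the former diet and batch cannot be told apart. In the latter they are separated only in part, since 5 of the 9 controls belonged to batch 2 and no batch term was fitted. Between the 2 sets of controls the Lipa log2 difference, batch 2 minus batch 1, was -0.46 ± 0.39 (SE, edgeR FDR = 0.914).

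Npc1 (chromosome 18, 12189694 to 12236386, minus strand) had 29.4, 40.2, 35.0 and 63.6 CPM in the batch 1 controls and 83.5, 70.7, 74.6, 76.6 and 65.3 CPM in the WD group. The groups of batch 1 did not overlap, by a margin of less than 2 CPM between WD replicate 5 and control replicate 4. In batch 2 controls it had 58.1, 64.2, 47.5, 46.4 and 67.3 CPM, and the highest of these lay above the lowest WD library. Its log2 fold change was 0.81 ± 0.33 (SE, edgeR FDR = 0.835) against batch 1 controls, 0.37 ± 0.20 (SE, edgeR FDR = 0.364) against batch 2 controls and 0.55 ± 0.24 (SE, edgeR FDR = 0.574) against all controls. The deposited positions of Npc1 overlap those of 3110002H16Rik, on the opposite strand, by 276 bases, and that gene had 0 to 266 counts per library. The overlap lies at the 3′ end of Npc1, which had 272 to 1183 counts per library. Whether these rows share reads was not tested.

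Npc2 (chromosome 12, 84754559 to 84773112, minus strand), first described as a secretory protein of the epididymis, had 2957, 1079, 820.4 and 1820 CPM in the batch 1 controls. The highest of these was replicate 1, the library with the epididymis markers, and the part of those markers in its level was not tested. The WD libraries had 1513, 6153, 2325, 2117 and 2611 CPM, with replicate 2 far above the rest, and the batch 2 controls had 1231, 1478, 1252, 1308 and 1367 CPM. All WD libraries thus stood above all batch 2 controls, whereas in batch 1 the diets overlapped. The log2 fold change was 0.81 ± 0.53 (SE, edgeR FDR = 1.00) within batch 1 and 1.25 without control replicate 1 (edgeR FDR = 0.681). Against batch 2 controls Npc2 rose by 1.13 ± 0.29 on the log2 scale (SE, edgeR FDR = 0.0277), and by 0.68 without WD replicate 2 (edgeR FDR = 0.0159). The call was lost when any 1 of the 5 batch 2 controls was left out (edgeR FDR = 0.0526 to 0.0756). Against all controls it was 0.98 ± 0.34 (SE, edgeR FDR = 0.312), and 1.19 without control replicate 1 (edgeR FDR = 0.0363).

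Soat1 (chromosome 1, 156428108 to 156474328, minus strand), whose enzyme returns free cholesterol to the ester form, had the largest estimated difference between the control batches among the 9 genes tested. It had 42.6, 21.6, 26.9 and 68.0 CPM in batch 1 controls, and 12.1, 18.3, 10.5, 14.1 and 12.3 CPM in batch 2 controls. These groups, on the same diet, did not overlap (log2 difference -1.57 ± 0.47, SE, edgeR FDR = 0.452), and Soat1 was the only one of the 9 genes tested for which this was so. Of 12106 genes tested between the control batches, 1.16% lay lower in every batch 2 library, and edgeR called 0.0% (895 genes, 7.39%, had an unadjusted p under 0.05). DESeq2 called 111 genes there, with Soat1 as the only member (FDR = 0.0411).

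The WD libraries had 51.7, 72.7, 64.0, 133.4 and 59.6 CPM of Soat1. Control replicate 4 lay within this range and the other 3 batch 1 controls below it. Within batch 1 the log2 fold change of Soat1 was 0.94 ± 0.43 (SE, edgeR FDR = 0.964), and 1.31 without control replicate 4 (edgeR FDR = 0.239). Against batch 2 controls Soat1 rose 5.64-fold (log2 2.50 ± 0.30, SE, edgeR FDR = 0.000101), where diet and batch cannot be told apart. Against all controls it was 1.59 ± 0.43 (SE, edgeR FDR = 0.139). That value passed the threshold without control replicate 1 (1.73, edgeR FDR = 0.0469) and without control replicate 4 (1.95, edgeR FDR = 0.00367), and with all libraries kept by DESeq2 (1.53, FDR = 0.0458) and limma-voom (1.80, FDR = 0.0223).

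Abca1 (chromosome 4, 53030789 to 53159895, minus strand), which loads cholesterol and phospholipid onto lipid-poor apolipoproteins, showed no difference past the threshold. It had 85.2, 119.7, 139.5 and 203.2 CPM in batch 1 controls, 132.5, 95.1, 114.5, 103.4 and 211.8 CPM in the WD group and 183.4, 202.2, 197.4, 155.1 and 105.0 CPM in batch 2 controls. The ranges of the 3 groups overlapped widely. The log2 fold change was -0.06 ± 0.34 (SE, edgeR FDR = 1.00) within batch 1, where its sign turned without control replicate 4 (0.18), -0.37 ± 0.25 (SE, edgeR FDR = 0.514) against batch 2 controls and -0.25 ± 0.26 (SE, edgeR FDR = 0.999) against all controls.

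Abcg1 (chromosome 17, 31057694 to 31117981, plus strand), which exports cholesterol to mature high-density lipoprotein, had 12.96, 41.5, 45.1 and 33.2 CPM in batch 1 controls. It had 56.7, 20.8, 68.8, 81.5 and 70.4 CPM in the WD group and 29.9, 6.48, 40.6, 36.1 and 22.96 CPM in batch 2 controls. Every WD library but replicate 2 stood above all 9 controls. The log2 fold change was 0.84 ± 0.48 (SE, edgeR FDR = 1.00) within batch 1, 1.12 ± 0.42 (SE, edgeR FDR = 0.149) against batch 2 controls and 0.99 ± 0.40 (SE, edgeR FDR = 0.504) against all controls. Without WD replicate 2 the value against batch 2 controls was 1.34 (edgeR FDR = 0.036).

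Apoe (chromosome 7, 19696244 to 19699188, minus strand), the apolipoprotein that macrophages and adipocytes secrete, had 1542, 3973, 3260 and 1376 CPM in batch 1 controls. Replicates 1 and 4, the libraries that stood apart, were the low ones. It had 4157, 5180, 3860, 2334 and 3361 CPM in the WD group and 4279, 3928, 3579, 4166 and 4785 CPM in batch 2 controls. The log2 fold change was 0.57 ± 0.46 (SE, edgeR FDR = 1.00) within batch 1, -0.15 ± 0.20 (SE, edgeR FDR = 0.814) against batch 2 controls and 0.12 ± 0.32 (SE, edgeR FDR = 0.999) against all controls. None passed the threshold, and the estimates differed in sign between control sets.

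Pltp (chromosome 2, 164839518 to 164857708, minus strand) encodes a plasma protein that moves phospholipids onto high-density lipoprotein. Its row had 76.5, 139.1, 104.1 and 279.7 CPM in batch 1 controls, 396.2, 403.7, 312.7, 319.6 and 244.1 CPM in the WD group and 132.7, 105.5, 91.8, 121.9 and 87.0 CPM in batch 2 controls. Only control replicate 4 reached into the WD range, above WD replicate 5. The log2 fold change was 1.16 ± 0.38 (SE, edgeR FDR = 0.567) within batch 1 and 1.63 without control replicate 4 (edgeR FDR = 0.0678). It was 1.62 ± 0.20 (SE, edgeR FDR = 0.000106) against batch 2 controls and 1.38 ± 0.28 (SE, edgeR FDR = 0.024) against all controls. Of the 14 libraries, 8 could each end the last call when left out (log2 1.32 to 1.41, edgeR FDR = 0.0517 to 0.0842).

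The Pltp row cannot be read as Pltp alone. The 3′ end of Pltp overlaps the 3′ end of Ctsa (chromosome 2, 164832872 to 164841032, plus strand), which encodes the lysosomal protective protein cathepsin A, over 1515 bases from 164839518 to 164841032. QuantSeq reads come from such ends, and no source used here says that counting used the strand. The counts of both rows were nearly equal in every library. Their ratio, Pltp to Ctsa, was 0.890 to 0.999, and the difference was 1 to 296 counts, at 708 to 5613 counts of Pltp. Ctsa had log2 fold changes of 1.20 ± 0.37 (SE, edgeR FDR = 0.546) within batch 1, 1.60 ± 0.19 (SE, edgeR FDR = 9.57e-05) against batch 2 controls and 1.40 ± 0.27 (SE, edgeR FDR = 0.0192) against all controls. The rise on this row therefore belongs to Pltp, to Ctsa or to both, which cannot be told apart.

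**Figure D2:**
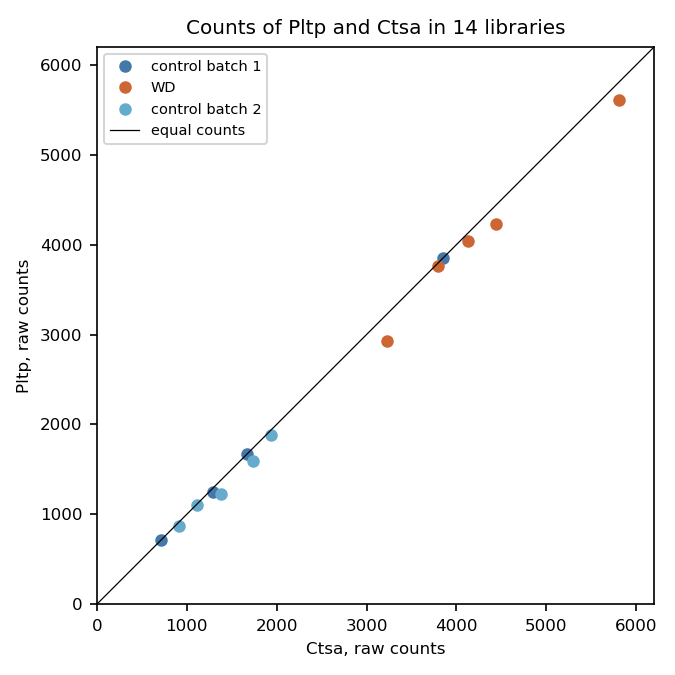
Raw counts of Pltp (vertical axis) against raw counts of Ctsa (horizontal axis) in each of 14 libraries, coloured by group, with the line of equal counts. Every point lay on or just under the line, at ratios of 0.890 to 0.999, from the lowest control to the highest WD library.

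Of the regulators, Nr1h3 (chromosome 2, 91184061 to 91195116, minus strand) had 18.5, 70.9, 96.5 and 39.6 CPM in batch 1 controls and 89.9, 120.4, 87.1, 83.5 and 91.4 CPM in the WD group. In batch 2 controls it had 111.8, 84.5, 136.0, 122.5 and 162.6 CPM. The WD libraries lay mostly above the batch 1 controls and mostly below the batch 2 controls. Accordingly its log2 fold change was 0.74 ± 0.42 (SE, edgeR FDR = 1.00) within batch 1, -0.40 ± 0.21 (SE, edgeR FDR = 0.343) against batch 2 controls and -0.0019 ± 0.36 (SE, edgeR FDR = 0.999) against all controls. The difference between the control batches, batch 2 minus batch 1, was 1.12 ± 0.42 (SE, edgeR FDR = 0.555). Control replicate 1 was the lowest, and without it the value within batch 1 was 0.45 (edgeR FDR = 1.00).

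Ch25h (chromosome 19, 34473784 to 34475135, minus strand), whose enzyme makes an oxysterol that can activate LXR, lies 17180 bases from Lipa on the same strand. It had 2 counts in control replicate 2, 6 counts in WD replicate 1 and 0 counts in the other 12 libraries. A library with 0 counts allows a level of up to 3 counts, or 0.212 to 0.324 CPM on the TMM scale over those 12 libraries, counting error only. A difference between diets was not detectable at this depth.

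The members were chosen with earlier results of these data known, so the counts in this and the next paragraph only describe them. The Pltp row counted among them may hold reads of Ctsa. Counted over the members, within batch 1 edgeR called 0 of the 9 genes tested, beside 0.0% of all genes. Lipa, Npc1, Soat1 and Pltp, 4 of the 9, had an unadjusted p under 0.05 (background 5.17%), and Lipa and Npc1, 2 of the 9, were higher in every WD library than in every batch 1 control (background 3.03%). Of the 9 log2 fold changes 8 were above 0, Abca1 being the exception, with a median of 0.81 against 0.03 over all genes. Limma-voom called no member, and DESeq2 called Lipa alone. Without control replicate 4, and without replicates 1 and 4 together, edgeR called Lipa alone among the members, beside 48 and 108 genes in all.

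Against batch 2 controls, Lipa, Npc2, Soat1 and Pltp rose, 4 of the 9 tested, where 3.93% of 12070 genes rose. The same 4 genes were higher in every WD library than in every batch 2 control (background 4.99%), and the median log2 fold change was 1.12 against -0.003 over all genes. Leaving out 1 library gave 3 to 5 called members. Without any 1 batch 2 control Npc2 was lost, and without WD replicate 2 Abcg1 was added. Against all 9 controls, Lipa and Pltp rose, where 0.435% of 12653 genes did, and Lipa alone did not overlap between diets (background 1.13%). The median was 0.98 against -0.042 over all genes. Leaving out 1 library gave 1 to 4 called members, 4 without control replicate 1, where Npc2 and Soat1 were added and the count over all genes went from 67 to 190. Without control replicates 1 and 4 together 4 members and 619 genes were called. Each of these comparisons uses the same 5 WD libraries, so they are not independent of each other. Batch differs between the diets wholly against batch 2 controls and in part against all controls.

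**Figure D3:**
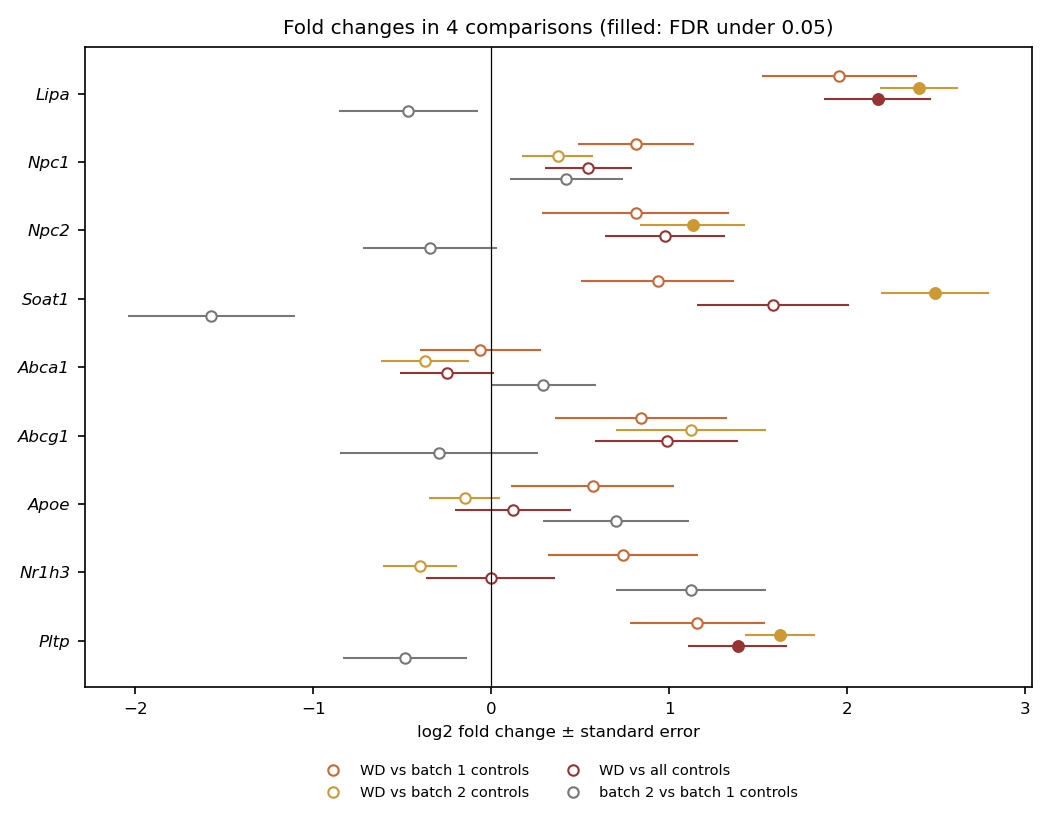
Log2 fold change ± SE (horizontal axis) of the 9 tested genes in 4 edgeR comparisons, with filled points at an FDR under 0.05. Lipa lay between 1.96 and 2.40 in the 3 comparisons of diet, and Soat1 was apart by -1.57 between the control batches.

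Most of the macrophage markers moved with these results. Of the 7 reported here, all tested, edgeR called 6 higher in the WD group against batch 2 controls (median log2 fold change 1.96, background 3.93%). It called 3 higher against all controls (Adgre1, Csf1r and Itgax, background 0.435%) and 0 within batch 1 (median 1.67, background 0.0%). The seventh, the scavenger receptor gene Cd163, had log2 fold changes below 0 that did not pass the threshold, -0.51 within batch 1 (edgeR FDR = 1.00), -0.72 against batch 2 controls (edgeR FDR = 0.121) and -0.64 against all controls (edgeR FDR = 0.685). Control replicate 4, with the highest Lipa, Soat1 and Pltp of the controls, also had their highest macrophage sum, 1242 CPM, which is above the 1166 CPM of WD replicate 5. Control replicate 4 had 238.2 CPM of Lipa, and WD replicate 5 had 364.1 CPM. The same 7 markers made up these sums in different proportions. Control replicate 4 had less Adgre1 (166.9 against 197.3 CPM) and Csf1r (388.5 against 405.1 CPM) than WD replicate 5. It also had less Itgax (24.2 against 52.9 CPM) and Lyz2 (24.4 against 67.7 CPM). It had more Cd68 (328.1 against 208.2 CPM), Mrc1 (233.0 against 172.2 CPM) and Cd163 (77.3 against 62.8 CPM). The adipocyte markers went the other way against batch 2 controls, where 4 of 7 fell (background 2.48%) and Lep rose (background 3.93%). Their median log2 fold change there was -0.87. Within batch 1 it was -0.01 and against all controls -0.69, with 0 called in each. Between the control batches, on the same diet, it was 0.84, batch 2 minus batch 1, again with 0 called. How far the content of macrophages or adipocytes sets the level of Lipa, Soat1, Npc2 or Pltp was not tested.

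**Figure D4:**
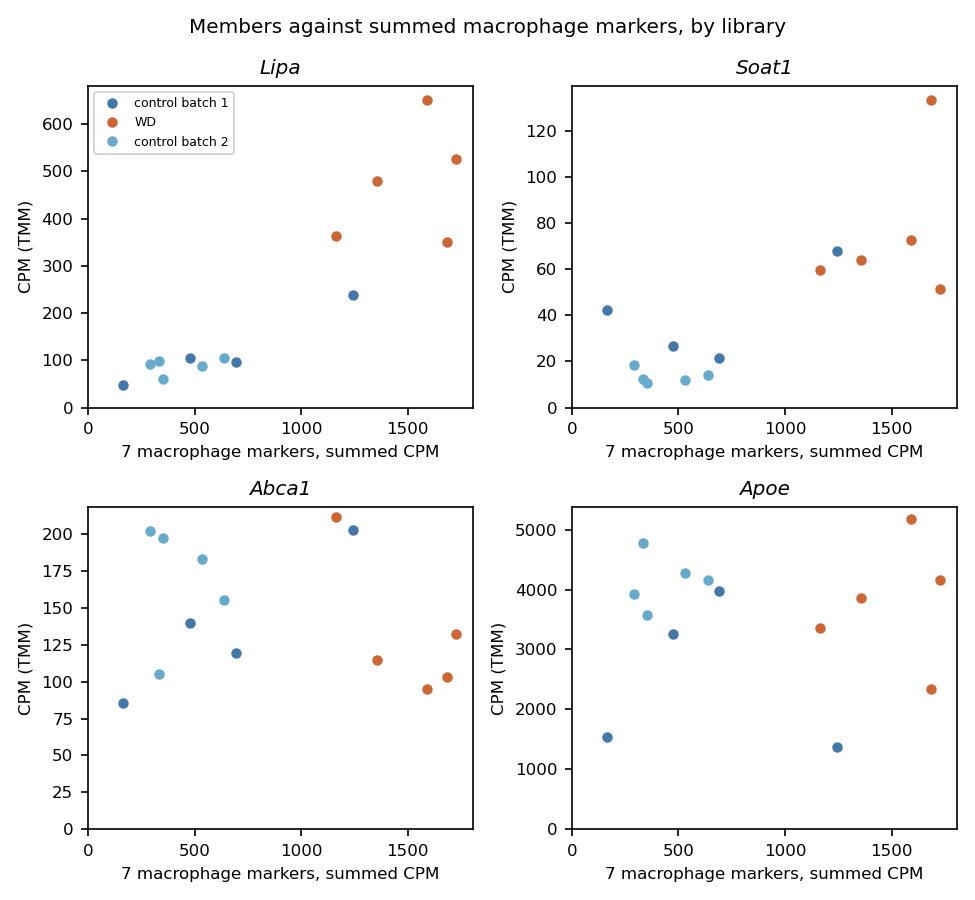
Level (CPM) of Lipa, Soat1, Abca1 and Apoe against the summed CPM of 7 macrophage markers in each of 14 libraries, coloured by group. The WD libraries lay at sums of 1166 to 1729 CPM with the highest Lipa, and control replicate 4, at 1242 CPM, was the only control within that range.

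Likeness between genes was described by Pearson's r of log2(CPM + 1) over 14 libraries, which share the difference between groups, and again after each group was centred on its mean. Lipa was most like Ctsa (r = 0.968), Pltp (0.964) and the macrophage gene Adgre1 (0.955), and after centring most like Prpsap1 (0.939), Wdr92 (0.927) and Dus2 (0.926), with Adgre1 at 0.797. Pltp was most like Ctsa (0.998, centred 0.995), then Adgre1 (0.976) and C3ar1 (0.970), and after centring Ogg1 (0.952) and Camk1 (0.915). The Pltp and Ctsa rows may hold the same reads, so their r with each other says nothing of likeness between the genes. For the same reason, the likeness of Lipa to both may be to a single signal. The r of Soat1 with Adgre1 was 0.756 (centred 0.267). The centred values give weight to the batch 1 controls, where Lipa ranged from 47.6 to 238.2 CPM and Adgre1 from 16.96 to 166.9 CPM, with replicate 4 highest for both.

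Soat1 was most like Gpnmb (0.949), Myof (0.936) and Slamf7 (0.915), and after centring Lepr (0.962), Usmg5 (0.914) and Patl1 (0.892). Npc1 was most like Crtac1 (0.883), Atf3 (0.873) and Clec12a (0.853), and after centring Stard7 (0.893), Rec114 (0.867) and Adgre1 (0.866). For Npc2 the genes were Atp6v0b (0.883), Ap2s1 (0.876) and Atox1 (0.867), and after centring Commd9 (0.933), Ccdc107 (0.928) and Higd1a (0.927). Npc2 and Lipa, which act in succession in the lysosome, had an r of 0.55 over all libraries and -0.02 after centring. Control replicate 1, with the epididymis markers, had the highest Npc2 of the controls (2957 CPM) and the lowest Lipa of all libraries (47.6 CPM). The part of that library in these r values was not tested.

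Abca1 was most like Atg16l1 (0.916, centred 0.917), Mpdz (0.903, centred 0.905) and Ghitm (0.870), with Atp13a3 (0.935) first after centring. Abcg1 was most like Lyz2 (0.918, centred 0.915), Tbxas1 (0.884) and Rab11a (0.878), and after centring Hspg2 (0.942) and Sptan1 (0.901) stood beside Lyz2. Although both encode efflux transporters, Abca1 and Abcg1 had an r of 0.02, and 0.26 after centring. Apoe was most like Adgrd1 (0.956), Sh2d7 (0.947) and Prss36 (0.947), and after centring Bckdha (0.957), Gpihbp1 (0.955) and Cabin1 (0.953). Nr1h3 was most like Bcap31 (0.958, centred 0.944), Cdsn (0.949) and Ccnd2 (0.944), and after centring Bnip3 (0.946) and Scd1 (0.944). Nr1h3 and Apoe had an r of 0.84 (centred 0.72), and Soat1 and Apoe one of -0.43 (centred -0.79). Among the batch 1 controls, replicates 1 and 4 were the lowest for Apoe and Nr1h3 and the highest for Soat1. The part of these libraries, which stood apart, in those r values was not tested.

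Other genes of the pathway were counted from lists. Of 12 LXR partners and other LXR targets, all tested, edgeR called only the desaturase gene Scd1, higher against batch 2 controls (log2 1.12 ± 0.27, SE, edgeR FDR = 0.0189), where 3.93% of all genes were higher. The list's median log2 fold change was 0.18 within batch 1, 0.11 against batch 2 controls and 0.00 against all controls. Within batch 1 Scd1 was higher in every WD library (12720 to 25580 CPM) than in every control (1823 to 11300 CPM), at an edgeR FDR of 1.00. Of 4 genes of lysosome biogenesis (Tfeb, Tfe3, Mitf and Mcoln1), edgeR called 0 in each of the 4 comparisons, with medians of -0.11 to 0.04.

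Of 28 other sterol handling genes, 22 were tested within batch 1, where 0 were called. Against batch 2 controls 22 were tested, of which 1 rose and 3 fell (background 3.93% higher and 2.48% lower). Rises there were thus about as frequent in this list as among all genes. The one that rose was Nceh1, a neutral hydrolase of cholesteryl esters in macrophages. It had 11.3 to 74.2 CPM in batch 1 controls, 65.3 to 208.6 CPM in the WD group and 7.49 to 18.3 CPM in batch 2 controls. Its log2 fold change was 3.22 ± 0.35 against batch 2 controls (SE, edgeR FDR = 3.59e-05), 2.32 ± 0.48 against all controls (SE, edgeR FDR = 0.0278) and 1.69 ± 0.54 within batch 1 (SE, edgeR FDR = 0.557). The genes that fell against batch 2 controls were the hormone-sensitive lipase gene Lipe (-0.78, edgeR FDR = 0.0102), the carboxylesterase gene Ces1d (-2.97, edgeR FDR = 0.000294) and the oxysterol-binding protein gene Osbpl1a (-0.88, edgeR FDR = 0.0337). Within batch 1 these were at 0.40, -1.13 and -0.32, each with an edgeR FDR of 1.00.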

How the data were processed

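RNA of eWAT was sequenced in 14 libraries by QuantSeq, a 3′ mRNA method. Reads were aligned by the authors with Bowtie2. Bedtools gave the counts per gene, in which reads with several alignments were kept, and the authors deposited these counts unscaled. The submitters' processing notes name build mm10, and the use of strand in counting is not given in the sources used here. The deposited log2 values, made by the authors from TMM-scaled CPM with 1 added, differed from log2(CPM + 1) recomputed here by at most 0.0506 for the members. Gene positions overlapped those of GENCODE on GRCm38 for 22097 of 22230 shared symbols. Every row named a gene.

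Counts were tested with edgeR 4.0.16 in R 4.3.3 (quasi-likelihood test, TMM, its filter on low counts, FDR threshold 0.05), with no covariate, as the study's methods name edgeR and TMM but no covariate. Each of 4 comparisons was fitted on its own libraries and adjusted over all genes tested. SE is the log2 fold change divided by the square root of F. Alternatives used DESeq2 1.42.0, limma 3.58.1 and other filters, scalings and library sets. Scripts were tested on simulated data. A level of 3 counts was taken as the smallest that could be shown. The named genes are the members, genes overlapping them, listed pathway genes with an FDR under 0.05 and the 3 genes most like each member. One listed macrophage marker is not reported here. The members and lists were chosen with earlier results of these data known. No 2 libraries of a group agreed within sampling noise (chi-square per degree of freedom at least 33.7). Tables were made in Python 3.11.15 (pandas 2.3.3, numpy 2.4.6) and drawn with matplotlib 3.10.9.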

Additional observations from a re-analysis of the deposited data

Results flagged for a closer look

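Within each group of 4 or 5 libraries, the levels of the members and of Ctsa, as log2(CPM + 1), were searched for a library far from the others by Dixon's criterion. Of 32 groups with a spread, 4 held one, where chance gives about 1 in 20, or 1.6, but the 2 of Ch25h carry no information, since a single library above 0 always meets the criterion. WD replicate 2 was low for Abcg1, at 4.45, with the other WD libraries at 5.85 to 6.37. The same library was high for Nr1h3, at 6.92, with the others at 6.40 to 6.53. The remaining pair concerned Ch25h, at 0.22 in control replicate 2 (2 counts) and at 0.51 in WD replicate 1 (6 counts), with every other library of their groups at 0. The causes were not tested.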

How the results depend on the processing

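The number of genes called moved with the tool and with the libraries used. Within batch 1 it was 0 by edgeR, 114 by DESeq2, 1 in a fit of all 14 libraries with 3 groups, 0 to 48 with 1 library left out (48 without control replicate 4) and 108 without control replicates 1 and 4, and the members called were 0, 1, 0, 0 to 1 and 1 in that order. Against batch 2 controls it was 773, 140 in the fit with 3 groups and 565 to 977 with 1 library left out, with 3 to 5 members called. Against all controls it was 67, with 128 when every library had to reach 1 CPM, 236 by DESeq2, 223 by limma-voom, 28 to 289 with 1 library left out (190 without control replicate 1, 289 without control replicate 4) and 619 without both, and the members called were 1 to 4 with 1 library left out and 4 without both. Between the control batches it was 0, with 111 by DESeq2 (1 member, Soat1), 1 in the fit with 3 groups, 0 to 2 with 1 library left out and 28 without control replicates 1 and 4. Removing both replicates, and removing Rn45s, which left every count of called members as it was, were chosen after seeing the data. The cause of these shifts was not tested.

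The replicate numbers did not pair the samples (correlation of same-numbered deviations -0.016 to 0.077, with 2 of 4 controls closest to their own number). With the numbers as a replicate block, 0 genes and 0 members were called against all controls and 0 within batch 1. Against all controls this block set WD replicate 5 beside control replicate 5 of batch 2. Control replicates 6 to 9 had no WD library of their number, so they added nothing to the difference between diets there. Between the other groups no paired analysis was possible because they share fewer than 2 numbers.

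Lipa kept its direction in every alternative of the comparisons of diet (log2 1.69 to 2.49 over all of them), although its call and that of Pltp against all controls were lost with the replicate block. The sign of small differences turned. Within batch 1, Abca1 was -0.33 to 0.18 with 1 library left out and 0.0213 without control replicates 1 and 4. Against all controls, Apoe was -0.0107 to 0.25 and, without both, -0.10. Nr1h3, at -0.0019 against all controls, was 0.0010 with upper-quartile factors, 0.0016 with RLE size factors and with DESeq2, 0.0123 without a filter, 0.0062 at a CPM of at least 1, 0.0128 without Rn45s, 0.19 with limma-voom, 0.70 with the replicate block and -0.12 to 0.14 with 1 library left out. Between the control batches, leaving out 1 library gave -0.74 to 0.11 for Lipa, -0.55 to 0.0887 for Npc2 (0.49 without control replicates 1 and 4), -0.70 to 0.0286 for Pltp and -0.64 to 0.0898 for Ctsa.

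Library totals differed little, but the reads carry no molecular identifiers, so counting precision is an upper limit. Diet is compared within a batch only in 4 against 5 libraries.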
